A study of Homo sapiens with 10 samples.

Results

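SPARC and 8 other genes whose proteins build or modify the extracellular matrix of myeloid cells were followed in acute myeloid leukemia (AML) cells with and without the transcription factor IRF8. The 9 genes, SPARC, SRGN, THBS1, VCAN, TGFBI, SPP1, FN1, TIMP1 and LGALS3, were taken by symbol from the 19590 genes of the RNA-Seq table, and each was present in it. They were picked with their difference between IRF8 knockout and control cells already known. Their levels and fold changes are therefore given as a description, with no test. MV4-11 is an established AML cell line. The control group consists of 4 libraries of MV4-11 cells infected by lentivirus with the control CRISPR vector, whose columns carry the name of wild type. The IRF8 knockout (IRF8 KO) group consists of 4 libraries of MV4-11 cells that received the lentiCRISPRv2 vector with a guide RNA against IRF8. The methods of the study describe puromycin selection and clones grown by limiting dilution. The clones named there were made with different guide RNAs and are fewer than the 4 libraries. The labels do not say which clone or guide RNA a library came from, and nothing says that the replicates were separate cultures. The p-values below therefore measure only the spread between these libraries. Values are normalized counts, that is reads per gene divided by 1 size factor per library.

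The matrix around blood cells is built of secreted glycoproteins, collagens and proteoglycans, and it is cut and protected by metalloproteinases and their inhibitors. Matricellular proteins such as SPARC, thrombospondin 1 and osteopontin add little to its structure but bind cell surface receptors, growth factors and collagen. Myeloid cells make several of these proteins themselves, and they pack granule proteins on serglycin, the proteoglycan encoded by SRGN. IRF8 is a transcription factor of monocyte and dendritic cell development that binds DNA with ETS factors at composite ETS-IRF motifs.

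Promoter sequence was available from RefSeq (GRCh38.p14) for 8 of the 9 genes, all but SRGN. The 250 bases before the start are printed for the pair of genes that were higher in IRF8 KO cells by the largest fold, SPARC and THBS1, and for the pair that was lower in every IRF8 KO library, TGFBI and VCAN, so that genes of opposite direction can be compared. Capitals mark GGCGG, the core of the GC box, on either strand. The SPARC stretch lies at chr5:151686916-151687165 on the minus strand, that of THBS1 at chr15:39580829-39581078, that of TGFBI at chr5:136028738-136028987 and that of VCAN at chr5:83471494-83471743, the last 3 on the plus strand.
SPARC: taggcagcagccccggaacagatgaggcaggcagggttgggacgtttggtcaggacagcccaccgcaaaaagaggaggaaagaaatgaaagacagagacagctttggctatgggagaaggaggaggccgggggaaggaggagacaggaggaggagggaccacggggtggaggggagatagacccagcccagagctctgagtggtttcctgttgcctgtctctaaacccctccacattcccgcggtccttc
THBS1: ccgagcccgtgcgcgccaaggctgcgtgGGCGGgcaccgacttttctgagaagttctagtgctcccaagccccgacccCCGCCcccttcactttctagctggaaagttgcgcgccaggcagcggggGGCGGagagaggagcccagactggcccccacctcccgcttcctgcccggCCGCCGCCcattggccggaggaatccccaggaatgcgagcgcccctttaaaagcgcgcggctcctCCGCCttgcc
TGFBI: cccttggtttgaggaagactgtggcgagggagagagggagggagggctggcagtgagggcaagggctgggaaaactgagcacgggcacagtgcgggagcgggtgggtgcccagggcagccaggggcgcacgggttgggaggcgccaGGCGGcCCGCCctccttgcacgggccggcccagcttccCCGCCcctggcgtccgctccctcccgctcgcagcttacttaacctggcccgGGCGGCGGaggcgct
VCAN: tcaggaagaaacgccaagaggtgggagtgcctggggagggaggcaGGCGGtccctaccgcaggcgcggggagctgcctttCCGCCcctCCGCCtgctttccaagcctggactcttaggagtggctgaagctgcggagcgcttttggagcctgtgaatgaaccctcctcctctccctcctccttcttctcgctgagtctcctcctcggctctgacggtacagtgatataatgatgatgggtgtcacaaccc

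The SPARC stretch holds no GGCGG, whereas the VCAN stretch holds 3, the TGFBI stretch 5 and the THBS1 stretch 6. Including the 50 bases after the start, GGCGG occurs in all 8 promoters of the group and in 58.6% of the 27305 promoters of the table. GC content of the 250 bases ranged from 44.8% for SPP1 to 78.8% for LGALS3, and it was 59.2% for SPARC. The ETS-IRF composite (GGAA followed, after any 2 bases, by GAAA, in 2.84% of all promoters), the core of the interferon-stimulated response element (GAAA followed, after any 2 bases, by GAAA, 3.65%) and TGANTCA (AP-1, 7.76%) did not occur on either strand of any of the 8. Both interferon-related motifs share the letters GAAA and can overlap. Genes that were higher and genes that were lower in IRF8 KO cells are thus not told apart by these letters within this window.

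IRF8 itself checks the labels. It measured 36891, 15192, 43016 and 22535 normalized counts in the control replicates 1 to 4, and 6377, 2401, 12903 and 7820 in the IRF8 KO replicates. Each IRF8 KO library was below each control library, at a mean of 25.1% of the control mean (log2 fold change -2.11, SE 0.51, adjusted p = 0.022 by limma). That call was lost when control replicate 1, control replicate 3 or IRF8 KO replicate 1 was left out (adjusted p 0.053 to 0.059). The transcript was reduced and not absent. The study reports that its knockout clones lacked IRF8 protein by Western blot and had lost IRF8 from its target genes. RNA levels do not measure either.

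Among the 9 genes, 3 were higher in every IRF8 KO library than in every control library (SPARC, SRGN and THBS1), 2 were lower (TGFBI and VCAN), and 4 overlapped between the groups (SPP1, FN1, TIMP1 and LGALS3). Of the 13110 genes whose mean reached 10 normalized counts, 25.3% did not overlap, 12.3% being higher and 13.0% lower. Nothing is read from this difference, since the genes were picked on this contrast. Of the 9 genes, 8 reached that mean and have a fitted fold change, 4 of them above 0 and 4 below. LGALS3 did not reach it. In bulk RNA, fewer cells with a transcript and less of it per cell cannot be told apart.

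**Figure D1:**
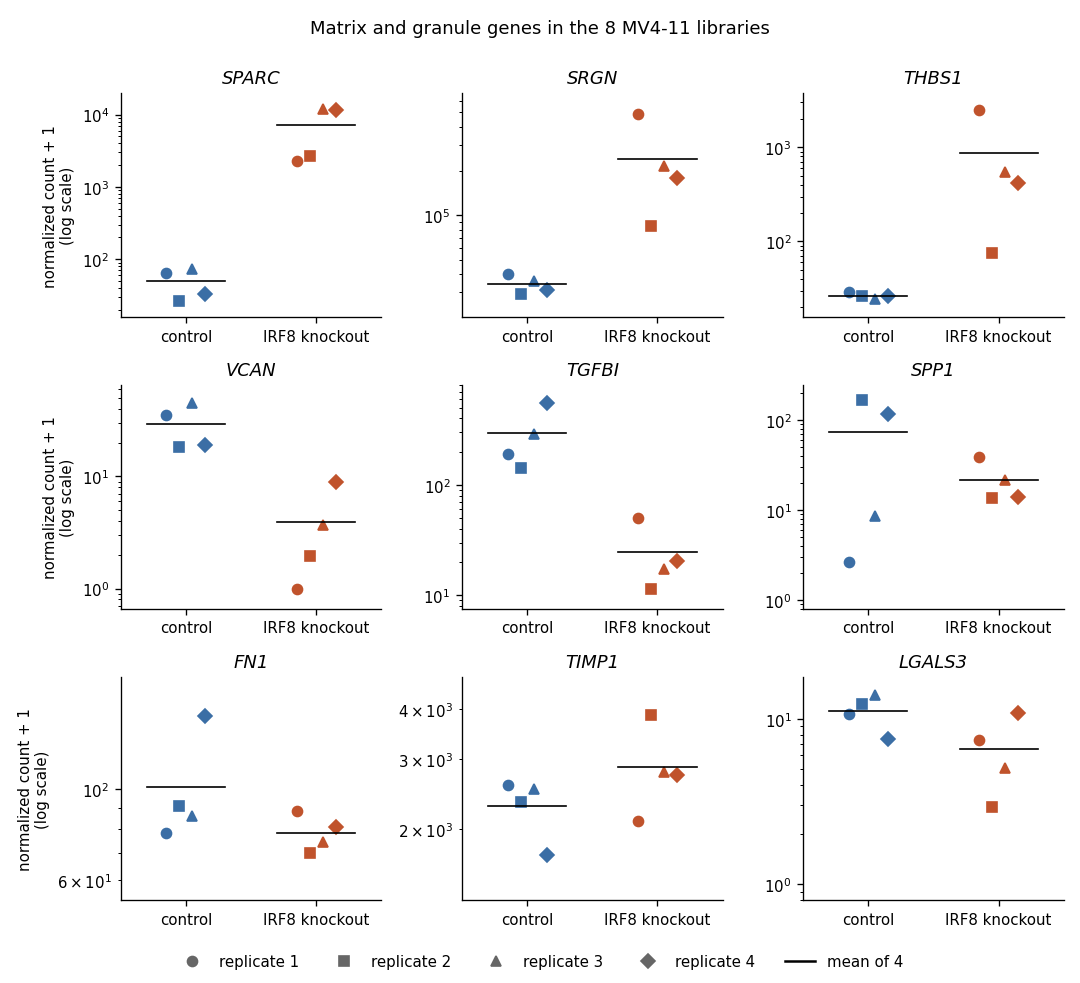
Normalized count plus 1 (log scale, own axis per gene) of the 9 genes in the 4 control and 4 IRF8 KO libraries; symbols mark the replicate number and lines the mean of 4. SPARC, SRGN and THBS1 lie higher in all IRF8 KO libraries, VCAN and TGFBI lower, and the other 4 genes overlap.

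SPARC (osteonectin), a secreted calcium- and collagen-binding glycoprotein, gave the largest difference of the 9. The control replicates measured 62.7, 25.9, 73.0 and 32.0 normalized counts, and the IRF8 KO replicates 2272, 2706, 12010.3 and 11578.5. All IRF8 KO libraries were far above the controls, but they lay at 2 levels, with replicates 3 and 4 well above replicates 1 and 2. The means were 48.4 ± 23.0 in control and 7142 ± 5378 in IRF8 KO cells (SD, n = 4 each), a ratio of 148. The log2 fold change of 6.90 (SE 0.62) ranked number 5 from the top among the 13110 genes. Against the control mean, the single IRF8 KO libraries stood at 46.9-fold, 55.9-fold, 248-fold and 239-fold. In reads, the control values rest on 30 to 78 and the IRF8 KO values on 2132 to 11770, so the control level is a low one that was nevertheless detected in every library.

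SPARC varied within both groups. In the IRF8 KO group, the highest library was 5.29 times the lowest, a span of 2.40 on the log2 scale that was wider than that of 94.8% of all tested genes (median span 0.64). In the control group, replicates 1 and 3 were higher than replicates 2 and 4, and the span was 1.46 (median over all genes 0.58). Taking only replicates 1 and 3, the log2 difference between IRF8 KO and control was 6.25, and taking only replicates 2 and 4 it was 7.55. Leaving out any single library kept the log2 fold change between 6.52 and 7.32.

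SRGN encodes serglycin, the core protein of the proteoglycan that fills secretory granules of blood cells. Its control replicates measured 39675, 29235, 35967 and 30838 normalized counts, and its IRF8 KO replicates 487367, 85175, 216513 and 180165. The controls were close to each other, and the IRF8 KO libraries were all higher but widely spread, with replicate 1 highest and replicate 2 lowest. The means were 33929 ± 4787 and 242305 ± 172503 (SD, n = 4 each), a ratio of 7.14 (log2 fold change 2.57, SE 0.44). The log2 difference was 3.10 within replicates 1 and 3 and 2.04 within replicates 2 and 4. SRGN took 0.0610% to 0.0753% of the reads of a control library. In IRF8 KO replicates 1 to 4 it took 0.908%, 0.165%, 0.404% and 0.350%. By its number of reads it ranked 2 among all genes of IRF8 KO replicate 1, and 37, 7 and 6 in IRF8 KO replicates 2, 3 and 4, against 140 to 195 in control. These ranks are not corrected for transcript length.

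THBS1 encodes thrombospondin 1, a glycoprotein of platelets and monocytes that binds CD36 and CD47 and can activate latent TGF-beta. The control replicates measured 28.2, 25.0, 23.6 and 25.4 normalized counts, and the IRF8 KO replicates 2473, 73.6, 543 and 418. The control libraries lay within a narrow range, whereas the IRF8 KO libraries ran from 2.88 to 96.8 times its mean. The means were 25.6 ± 1.90 and 877 ± 1083 (SD, n = 4 each), a ratio of 34.3. By library, the ratio to the control mean was 96.8, 2.88, 21.2 and 16.4. The log2 fold change was 4.09 (SE 0.87), and it was 3.28 without IRF8 KO replicate 1 and 4.96 without IRF8 KO replicate 2. It was 5.44 within replicates 1 and 3 and 2.75 within replicates 2 and 4, and 5.08 by edgeR and 5.10 by DESeq2 on the recovered reads. The span of 5.05 on the log2 scale within the IRF8 KO group was wider than that of 99.4% of tested genes, and that within control (0.24) was narrower than most.

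SRGN and THBS1 ranked the IRF8 KO libraries alike, with replicate 1 highest, then 3, 4 and 2. Their deviations from the group means correlated at 0.98 over the 8 libraries. LYZ (lysozyme, a granule enzyme of monocytes and neutrophils) followed the same order in the IRF8 KO libraries with 248604, 13767, 39385 and 32984 normalized counts, but it overlapped with the control values of 12725, 1734, 14757 and 2630 and was not called (log2 fold change 3.09, SE 0.98, adjusted p = 0.06 by limma). SPARC did not share this order. Its deviations correlated with those of SRGN at -0.0033 and with those of THBS1 at -0.029.

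**Figure D2:**
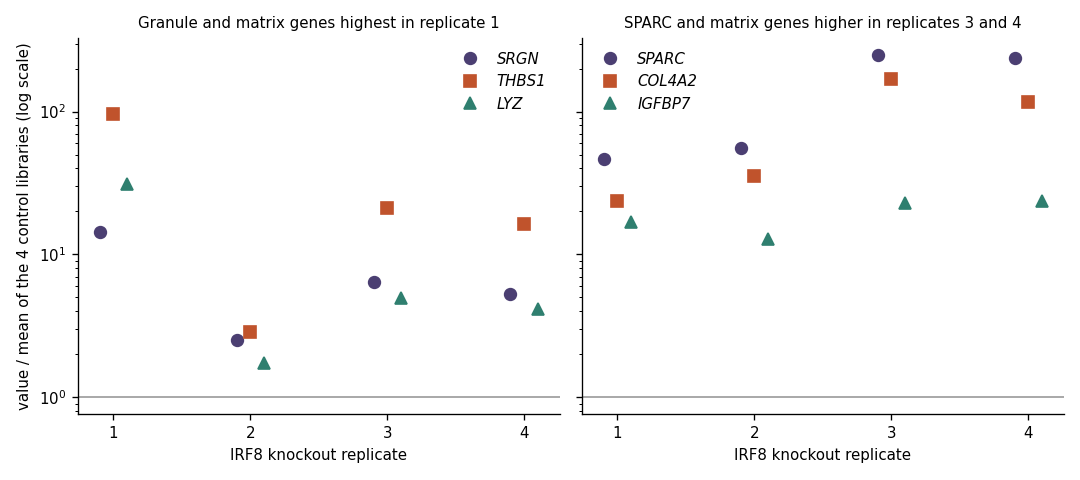
Value of each IRF8 KO replicate (horizontal axis) divided by the mean of the 4 control libraries (log scale; the grey line at 1 is the control mean), for SRGN, THBS1 and LYZ on the left and SPARC, COL4A2 and IGFBP7 on the right. The left genes peak in replicate 1 and are lowest in replicate 2, and the right genes are higher in replicates 3 and 4 than in 1 and 2, slightly so for IGFBP7.

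TGFBI and VCAN went the other way. TGFBI encodes a secreted protein, induced by TGF-beta, that links integrins and collagens. It measured 191, 141, 291 and 551 normalized counts in control and 49.0, 10.5, 16.3 and 19.7 in IRF8 KO cells. The highest IRF8 KO library, replicate 1, stayed below the lowest control library. The means were 293 ± 182 and 23.9 ± 17.2 (SD, n = 4 each), 12.3-fold lower in IRF8 KO cells (log2 fold change -3.60, SE 0.54). The log2 difference was -3.01 within replicates 1 and 3 and -4.18 within replicates 2 and 4.

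VCAN encodes versican, a large chondroitin sulfate proteoglycan that binds hyaluronan. It was a low transcript, with 34.6, 17.3, 44.0 and 17.9 normalized counts in control. In the IRF8 KO replicates it measured 0, 0.956, 2.71 and 7.87, which are 0, 1, 2 and 8 reads. The groups did not overlap, but the IRF8 KO values lie near the counting floor. The means were 28.4 ± 13.1 and 2.88 ± 3.51 (SD, n = 4 each), 9.86-fold lower. The log2 fold change was -3.27 (SE 0.69) with a pseudocount of 1 and -2.10 with a pseudocount of 5, and it was -4.38 within replicates 1 and 3 and -2.16 within replicates 2 and 4. As for SPARC, control replicates 1 and 3 were higher than 2 and 4.

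SPP1 encodes osteopontin, a phosphorylated ligand of integrins and CD44 that macrophages secrete. Its control replicates measured 1.61, 164, 7.52 and 116 normalized counts, and its IRF8 KO replicates 37.3, 12.4, 20.3 and 12.8. The control group split into low replicates 1 and 3 and high replicates 2 and 4, with all IRF8 KO libraries in between. The means were 72.2 ± 80.6 and 20.7 ± 11.6 (SD, n = 4 each), and the log2 fold change was -0.38 with an SE of 1.26. Its direction depended on the libraries taken. The log2 difference was 2.60 within replicates 1 and 3 and -3.35 within replicates 2 and 4, and the log2 fold change was 0.52 without control replicate 2, 0.35 without control replicate 4 and -1.47 without control replicate 1. On the recovered reads it was -1.83 by edgeR and -1.81 by DESeq2. The span within the control group, 5.98 on the log2 scale, exceeded that of 99.8% of tested genes.

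The last 3 genes overlapped between the groups. FN1 encodes fibronectin, the glycoprotein that integrin ITGA5/ITGB1 binds. It measured 77.2, 89.7, 84.8 and 149 normalized counts in control and 87.4, 68.8, 73.1 and 79.7 in IRF8 KO cells, so the groups overlapped with control replicate 4 standing highest (log2 fold change -0.33, SE 0.26). TIMP1, an inhibitor of metalloproteinases, measured 2575, 2331, 2525 and 1721 in control and 2091, 3865, 2783 and 2723 in IRF8 KO cells. The groups overlapped here too, and IRF8 KO replicate 2 was highest (means 2288 ± 392 and 2865 ± 736, SD, n = 4 each, log2 fold change 0.31, SE 0.21). The difference in TIMP1 was -0.080 within replicates 1 and 3 and 0.70 within replicates 2 and 4. LGALS3 encodes galectin-3, a lectin that binds beta-galactosides and is abundant in macrophages. It was close to the counting floor with 9.65, 11.2, 12.9 and 6.59 in control and 6.39, 1.91, 4.06 and 9.84 in IRF8 KO cells. The IRF8 KO mean was 55.0% of the control mean (5.55 and 10.1). These values rest on 2 to 13 reads per library, and no fold change was fitted.

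**Figure D3:**
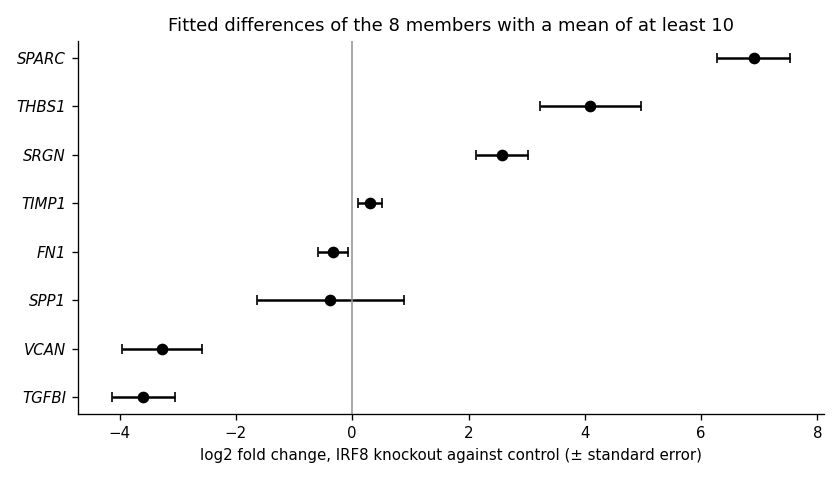
Log2 fold change of IRF8 KO against control (horizontal axis) for the 8 genes whose mean reached 10 normalized counts; points are fitted values and bars 1 standard error in each direction. SPARC (6.90), THBS1 (4.09) and SRGN (2.57) are higher, TGFBI (-3.60) and VCAN (-3.27) lower, and SPP1 has the widest bar.

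The libraries deviated from their group means in a shared way, replicates 1 and 3 together and replicates 2 and 4 together. This was clearer between the groups and within control than within the IRF8 KO group. Deviations from the group means, over all tested genes, correlated at 0.37, 0.48, 0.45 and 0.50 for the control and IRF8 KO libraries of the same number. Between groups they correlated about as much across these pairs of numbers, at 0.47 for control replicate 1 with IRF8 KO replicate 3, 0.41 for control 3 with IRF8 KO 1, 0.40 for control 2 with IRF8 KO 4 and 0.41 for control 4 with IRF8 KO 2. Within the control group they correlated at 0.83 between control replicates 1 and 3 and 0.71 between control replicates 2 and 4. Within the IRF8 KO group the same pairs had the highest correlations, at -0.13 (replicates 1 and 3) and 0.048 (replicates 2 and 4). The other IRF8 KO pairs ran from -0.68 to -0.16. For each gene the deviations within a group sum to 0, which pulls correlations within a group below 0. Genes that split the controls in this way, as SPP1, SPARC and VCAN do, carry that split into their control SD. No source used here says what a shared number stands for, and its part in these values was not tested.

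The place of the genes in the genome was also compared. SPARC, VCAN and TGFBI all lie on chromosome 5. The median log2 fold change was 0.22 over its 592 tested genes and -0.00094 over all tested genes. That of chromosome 5 was the highest of all chromosomes, followed by chromosome 13 (0.16). The 4 tested genes nearest to SPARC (SLC36A1, FAT2, ATOX1 and G3BP1) had log2 fold changes between 0.14 and 1.12, far below SPARC itself, and 1 of them was called. Near TGFBI, 2 of the 4 nearest tested genes were called, and the range reached down to -5.69 (TIFAB). One of these neighbours is SPOCK1, a relative of SPARC described below. None of the 9 genes lies on chromosomes Y, 20 or 21, which had the lowest median log2 fold changes (-5.55 over 11 tested genes, -0.92 over 351 and -0.33 over 129).

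Genes with the pattern most like that of SPARC were sought among 10985 other genes whose mean reached 100 normalized counts, by Pearson's r of log2(normalized count + 1). Over all 8 libraries these were FAM92A (r = 0.997), ZIC2 (0.991), FRMD4B (0.989), PKIB (0.986) and ALG5 (0.986), with ratios of the group means from 1.67 (ALG5) to 5.11 (FRMD4B), all much smaller than that of SPARC. By the deviations from the group means alone, the leading 5 included MREG (0.983), ELL2 (0.981), GPBP1 (0.976) and GRAMD2B (0.974). The ratios of the group means of these 5 ran from 0.148 to 1.87, so that they were lower, level or higher in IRF8 KO cells. MREG had 104, 110, 196 and 193 normalized counts in the IRF8 KO libraries, low in replicates 1 and 2 and high in 3 and 4 as for SPARC. These r values describe only 8 libraries, whose deviations from the group means were partly shared, and they carry no test.

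Related genes were counted in 8 lists, with the 9 genes left out. Of 290 listed genes, 179 reached the mean of 10 and were tested, and 24 were lower and 31 higher in IRF8 KO cells at an adjusted p below 0.05 (30.7% called), while 124 were not called. Over all tested genes, 9.56% were called lower and 8.65% higher by limma, 18.2% in either direction. With the call set at an unadjusted p below 0.01 together with at least a 2-fold change, 22 of the related genes were lower and 17 higher, beside 6.12% and 4.78% of all tested genes. The lists were written with earlier results of these data known, so their shares are given as a description. The medians of the lists lay between -0.27 (proteoglycans, 37 genes) and 0.74 (SPARC family, only 3 genes), beside -0.00094 over all tested genes.

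**Figure D4:**
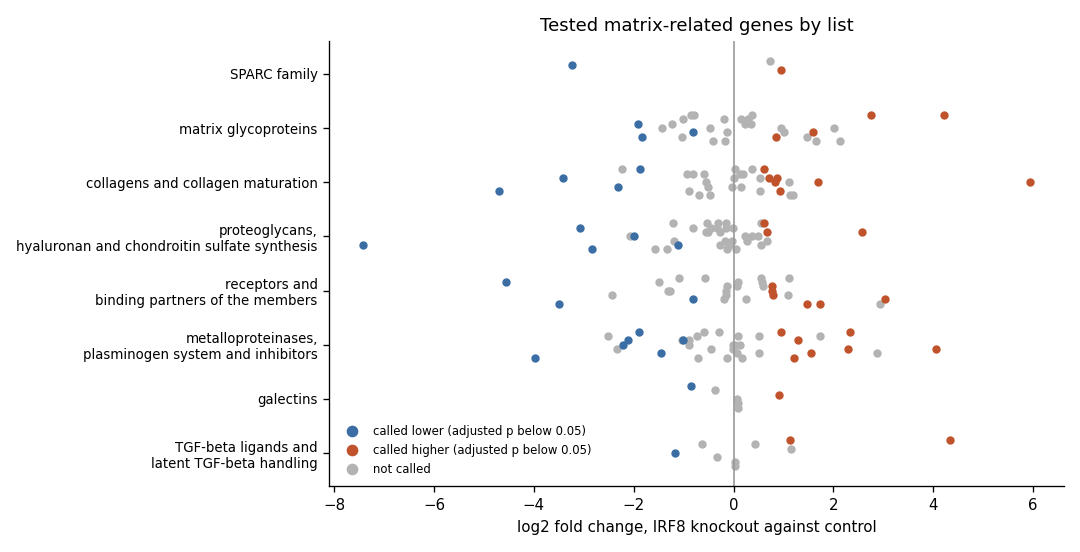
Log2 fold change of IRF8 KO against control (horizontal axis) of each tested related gene, by list; blue points were called lower, orange points called higher and grey points not called. Every list holds genes called in both directions, and the leftmost point, SDC4 at -7.43, has 0 reads in all IRF8 KO libraries, so its position depends on the pseudocount.

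Of the SPARC family, 3 of 7 genes were tested. SPOCK1, a testican proteoglycan with a SPARC-like domain, measured 2407, 5524, 2226 and 5155 normalized counts in control and 76.7, 875, 245 and 1175 in IRF8 KO cells. The groups did not overlap, and the level fell (log2 fold change -3.23, SE 0.80, adjusted p = 0.024 by limma). SPOCK2, a second testican, rose from a mean of 64.1 ± 9.09 to 127 ± 34.8 (SD, n = 4 each, log2 fold change 0.95, adjusted p = 0.029 by limma). Both calls were lost when single libraries were left out. For SPOCK1 these were control replicates 2 and 4 and IRF8 KO replicate 3 (adjusted p 0.057 to 0.070), while without IRF8 KO replicate 1 the log2 fold change was -2.47. For SPOCK2 they were control replicates 1 to 3 and IRF8 KO replicate 4 (0.056 to 0.084). SPARCL1, the closest relative of SPARC, stayed under 17 normalized counts in every library and was not tested.

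Among 29 tested matrix glycoproteins, 3 fell and 4 rose. IGFBP7, a secreted protein that binds insulin-like growth factors and type IV collagen, measured 131, 127, 108 and 95.1 in control and 1932, 1473, 2654 and 2740 in IRF8 KO cells. The IRF8 KO libraries were all far above the controls, with replicates 3 and 4 somewhat higher than 1 and 2 (log2 fold change 4.21, SE 0.23, adjusted p = 1.6e-05 by limma). CCN2, a matricellular growth factor adaptor, rose as well (log2 fold change 2.75, adjusted p = 0.0054), as did LAMC1 and EMILIN2. THBS4, a thrombospondin, fell from 389 ± 123 to 102 ± 27.8 (SD, n = 4 each, log2 fold change -1.91, adjusted p = 0.0033), opposite in sign to THBS1. NID2, a nidogen of basement membranes, and EMILIN1 fell too. THBS3 was not called (log2 fold change 0.14, adjusted p = 0.84).

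SPARC binds collagens, and among 32 tested collagen genes and collagen-modifying enzymes 4 fell and 7 rose. COL4A2, a chain of type IV collagen, measured 10.5, 16.4, 14.0 and 21.7 in control and 367, 552, 2634 and 1828 in IRF8 KO cells. It was higher in every IRF8 KO library, and like SPARC it was highest in replicates 3 and 4 (log2 fold change 5.95, SE 0.61, adjusted p = 0.00039 by limma). Its deviations correlated with those of SPARC at 0.73 over the 8 libraries. For VCAN, which was lower in IRF8 KO cells and rests on few reads there, this correlation was 0.91. COL4A1, the partner chain encoded beside COL4A2, did not exceed 8.13 normalized counts in any library and was not tested. COL6A1, a chain of type VI collagen encoded on chromosome 21, fell from 7139 ± 5110 to 229 ± 42.7 (SD, n = 4 each, log2 fold change -4.70, adjusted p = 0.00031), and COL27A1 fell by 3.42 on the log2 scale (adjusted p = 0.0083), with a log2 fold change of -2.71 without IRF8 KO replicate 1.

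The enzymes that fold collagen differed among themselves. P4HB, the protein disulfide isomerase subunit of prolyl 4-hydroxylase, rose from 63943 ± 3052 to 123114 ± 27576 (SD, n = 4 each, log2 fold change 0.92, adjusted p = 0.0038 by limma). P3H3, a prolyl 3-hydroxylase, rose by 1.69 on the log2 scale (adjusted p = 0.019), a call that was lost without control replicate 1, control replicate 3 or IRF8 KO replicate 1 (0.050 to 0.053). The collagen chaperone SERPINH1 was not called (log2 fold change -0.55, adjusted p = 0.18), but was without IRF8 KO replicate 2 (adjusted p = 0.022). COL18A1 was not called either (log2 fold change -0.89, adjusted p = 0.10), but was by DESeq2 and with the covariate for replicates 1 and 3 (0.025 to 0.040).

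SRGN and VCAN are proteoglycans, and among 37 tested genes of proteoglycans, hyaluronan and chondroitin sulfate synthesis 5 fell and 3 rose. SDC4, a cell surface heparan sulfate proteoglycan encoded on chromosome 20, measured 188, 170, 148 and 181 in control and 0 in all 4 IRF8 KO libraries. At a floor of 3 reads per library it was at least 52.5-fold lower. CSPG4 (NG2), a chondroitin sulfate proteoglycan of the cell surface, fell from 11270 ± 971 to 1678 ± 1456 (SD, n = 4 each, log2 fold change -3.07, adjusted p = 0.0022 by limma). PRG2, the proteoglycan of eosinophil granules, rose from 39.6 ± 11.2 to 246 ± 82.2 (SD, n = 4 each, log2 fold change 2.57, adjusted p = 0.001). B3GAT3, which completes the linker on which chondroitin and heparan sulfate chains are built, rose by 0.67 on the log2 scale (adjusted p = 0.013). The chondroitin synthesis genes CHST11 and CHSY1 were not called (log2 fold changes -0.013 and -0.099, adjusted p = 0.97 and 0.61), and CHST15 stayed below 20 normalized counts.

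Of 28 tested receptors and binding partners of the 9 proteins, 3 fell and 6 rose. The THBS1 receptors differed in direction. CD36 measured 157, 4.31, 188 and 29.2 in control and 2.13, 0, 4.06 and 0 in IRF8 KO cells (log2 fold change -4.55, SE 1.15, adjusted p = 0.025 by limma), a narrow gap between the groups that lost its call without control replicate 1, control replicate 3, IRF8 KO replicate 2 or IRF8 KO replicate 4 (0.056 to 0.071) and under quantile normalization (0.055). Its log2 fold change was -3.15 with a pseudocount of 5, -5.60 without control replicate 2 and -5.96 by edgeR. CD47 rose from 3096 ± 251 to 5294 ± 806 (SD, n = 4 each, log2 fold change 0.76, adjusted p = 0.0058). LRP1, a scavenger receptor that takes up THBS1, was not called (log2 fold change -0.58, adjusted p = 0.57), and the osteopontin and hyaluronan receptor CD44 was not called either (-0.14, adjusted p = 0.84).

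Among the integrins, ITGAV, the alpha chain shared by receptors of SPP1, FN1 and TGFBI, rose from 844 ± 67.3 to 2905 ± 806 (SD, n = 4 each, log2 fold change 1.74, adjusted p = 0.00068 by limma). ITGA4 rose by 0.76 (adjusted p = 0.017) and ITGAM, the alpha chain of the complement receptor Mac-1, by 3.03 on the log2 scale (adjusted p = 0.00098), whereas ITGA2, a collagen-binding chain, fell by 3.49 (adjusted p = 0.00036). ITGA5 was not called (-0.14, adjusted p = 0.73). ITGB1 was not called without the replicate block (log2 fold change 0.57, adjusted p = 0.11) and was with it (adjusted p = 0.013), and ITGB3 likewise (-1.28, adjusted p = 0.056 and 0.038), the latter also without the trend or without IRF8 KO replicate 2 (0.029). CD63, which binds TIMP1, rose from 8011 ± 396 to 13898 ± 2109 (SD, n = 4 each, log2 fold change 0.78, adjusted p = 0.0035). STAB1, a scavenger receptor for SPARC, had a log2 fold change of 1.08 that was not called without the block (adjusted p = 0.072) but was with it (0.018), without IRF8 KO replicate 1 (0.0072), by edgeR, by DESeq2, under quantile normalization and with the covariate for replicates 1 and 3 (0.0060 to 0.050 over these and the block).

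TIMP1 inhibits metalloproteinases, and among 35 tested genes of metalloproteinases, the plasminogen system and their inhibitors 6 fell and 7 rose. The other inhibitors of the family moved apart. TIMP2 rose from 1021 ± 182 to 3120 ± 1168 (SD, n = 4 each, log2 fold change 1.56, adjusted p = 0.0042 by limma), and TIMP3 fell from 41.9 ± 18.8 to 2.03 ± 2.01 (log2 fold change -3.98, adjusted p = 0.0024, and -2.69 with a pseudocount of 5). The membrane-bound protease MMP14 fell by 1.02 (adjusted p = 0.0063) and the urokinase receptor PLAUR by 1.44 on the log2 scale (adjusted p = 0.001). The gelatinase MMP9, encoded on chromosome 20, fell by 2.12 (adjusted p = 0.043), a call that was lost without any 1 of the control replicates or of IRF8 KO replicates 3 and 4 (0.060 to 0.107) and with all libraries by edgeR or by limma without the trend (0.056 to 0.057), and the log2 fold change was -1.48 without IRF8 KO replicate 1. MMP2 was not called (0.17, adjusted p = 0.32). The protease ADAM28 rose from 48.1 ± 23.2 to 777 ± 262 (SD, n = 4 each, log2 fold change 4.06, adjusted p = 0.00026), and ADAMDEC1 rose by 2.34 (adjusted p = 0.012), while ADAMTS17 fell by 2.22 (adjusted p = 0.0045).

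Beside LGALS3, 6 galectin genes were tested. LGALS1 (galectin-1) fell from 24162 ± 1655 to 13407 ± 1251 (SD, n = 4 each, log2 fold change -0.85, adjusted p = 0.0011 by limma), and LGALS8 rose by 0.91 (adjusted p = 0.0092). LGALS9 was not called (0.064, adjusted p = 0.93). The galectin-3 ligand LGALS3BP measured 440, 1070, 297 and 686 in control and 525, 8158, 7525 and 10203 in IRF8 KO cells. Replicates 2 to 4 of the IRF8 KO group were high and replicate 1 lay within the control range, so the gene was not called (log2 fold change 2.93, adjusted p = 0.055). It was called without IRF8 KO replicate 1 (0.0011), and with all libraries by edgeR, by DESeq2, under quantile normalization, with the replicate block and with the covariate for replicates 1 and 3 (0.00031 to 0.043).

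Since THBS1 can activate latent TGF-beta and TGFBI is a TGF-beta target, 9 genes of TGF-beta ligands and their latent forms were tested, of which 1 fell and 2 rose. TGFB2 measured 20.9, 8.63, 38.7 and 5.65 in control and 800, 60.2, 562 and 334 in IRF8 KO cells. It was higher in every IRF8 KO library, with the same order of libraries as SRGN and THBS1 (log2 fold change 4.34, SE 0.85, adjusted p = 0.0086 by limma, and 5.12 without IRF8 KO replicate 2). TGFB1, the more widely expressed ligand, was not called (0.039, adjusted p = 0.88). FURIN, the protease that matures TGF-beta, rose by 1.13 (adjusted p = 0.029), and the latency protein LTBP3 fell by 1.17 on the log2 scale (adjusted p = 0.021). Each of these last 2 calls was lost on leaving out 1 of 5 single libraries, and that of FURIN also by edgeR on all libraries (adjusted p = 0.053).

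Marker genes were read beside these results, because the 9 genes are made by other cell types too. Of 12 myelomonocytic markers, all were tested, 6 rose by limma (MPO, CD4, CD68, ITGAM, PTPRC and FCGR1A) and 6 were not called. In this list 8 were at an unadjusted p below 0.05, and 6 were called by edgeR, 7 by DESeq2 and 9 with the replicate block. Of those not called, CD33, CSF1R and FLT3 had log2 fold changes below 0 (-0.34, -0.27 and -0.21), and SPI1, CD14 and LYZ above 0 (0.29, 1.35 and 3.09). The summed level of the list was 86043 to 101860 normalized counts in control and 138832 to 377884 in IRF8 KO libraries, but LYZ alone made up 248604 of the highest sum. Without LYZ the sum of the other 11 was 71286 to 100126 in control and 112498 to 129281 in IRF8 KO libraries. MPO, the peroxidase of myeloid granules, rose from 767 ± 54.6 to 13378 ± 3888 (SD, n = 4 each, log2 fold change 4.08, adjusted p = 9.9e-06 by limma). CD14, a defining marker of monocytes, stayed at or below 25.6. The 6 markers that rose were higher in IRF8 KO than in control cells, as SRGN and THBS1 were. Within the IRF8 KO group none of them had the order of libraries of SRGN and THBS1. In IRF8 KO replicate 1, where SRGN and THBS1 peaked, MPO and CD68 were highest but ITGAM (406) and FCGR1A (3706) lowest. The part of these markers in the values of SRGN and THBS1 was not tested. Of 10 fibroblast markers 4 were tested and 0 called by limma (1 at an unadjusted p below 0.05, 0 by edgeR and 0 by DESeq2, 1 with the replicate block), with 0 reads of COL3A1 in every library and at most 2.87 normalized counts of COL1A2, DCN, LUM or THY1. Other genes of that list were detected, and their levels overlapped between the groups. PDGFRB had a mean of 39.9 ± 29.5 in control and 163 ± 169 in IRF8 KO cells (SD, n = 4 each), with 406 in IRF8 KO replicate 2 (log2 fold change 1.57, adjusted p = 0.31), and ACTA2 had 70.7 ± 36.4 and 140 ± 75.0 (0.98, adjusted p = 0.17). TAGLN and COL1A1 had log2 fold changes below 0 (-0.64 and -0.48, adjusted p = 0.12 and 0.53 by limma). TAGLN was the gene of this list at an unadjusted p below 0.05. The summed level of the fibroblast list was 302 to 536 in control and 270 to 931 in IRF8 KO cells. The platelet genes PF4 and PPBP had 0 reads in every library, and of the 8 megakaryocyte and platelet markers 3 were tested and 0 called (1 at an unadjusted p below 0.05, 0 by edgeR and 0 by DESeq2, 1 with the replicate block). The summed level of these 8 was 5733 to 14730 in control and 2131 to 10167 in IRF8 KO cells, nearly all of it ITGA2B, which MV4-11 cells expressed in both groups. The 3 tested genes all had log2 fold changes below 0. These were -1.09 for ITGA2B, -1.34 for TUBB1 and -0.58 for GP1BB (adjusted p = 0.19, 0.14 and 0.46 by limma). TUBB1 was the gene of this list at an unadjusted p below 0.05. GP9, of the same list, was too low to be tested. It was at most 1.61 in control and measured 0, 1.91, 9.48 and 18.7 in the IRF8 KO replicates. The part of such cells in the values of SPARC and THBS1 was not tested. Of 7 endothelial markers 3 were tested and 0 called by limma (2 at an unadjusted p below 0.05, 0 by edgeR and 0 by DESeq2, 1 with the replicate block). Of the epithelial markers KRT8 and KRT18 fell, and of the erythroid markers KLF1 rose.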

How the data were processed

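RNA of MV4-11 cells was sequenced in 4 control and 4 IRF8 knockout libraries. Per the methods of the study, the authors aligned reads with RNA-Star to GENCODE, counted them per gene with featureCounts and normalized them with DESeq2. The GENCODE release named there is annotated on GRCh38, and the submitters' processing notes name both hg19 and hg38 without a role. The deposited signal is the authors' read count per gene divided by 1 size factor per library. The authors' deposited table of the comparison (log2 fold changes, p-values) and the IRF8 ChIP-Seq samples were not used here. All columns were assigned to a library, with 0 left over, and those headed as wild type were taken as the controls.

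Dividing by the value of 1 read gave whole reads within 0.01 reads for 100% of values, with 39560072 to 65519047 reads on genes per library (median 52233344). The main comparison used limma 3.58.1 (R 4.3.3, trended and robust variance) on log2(normalized count + 1) for the 13110 genes whose mean reached 10, with Benjamini-Hochberg adjustment over all of them, called at an adjusted p below 0.05. On this scale, changes of low genes are understated. The script was tested on simulated data. Alternatives were pseudocounts of 0.5 and 5, no filter and a mean of at least 100, upper quartile and quantile scaling, no trend, the thresholds of the study, the replicate number as a block, edgeR 4.0.16 (quasi-likelihood) and DESeq2 1.42.0 on the recovered reads, and leaving out each library. A covariate for replicates 1 and 3, and values within replicates 1 and 3 and within 2 and 4, were added after seeing the data. Whether counting used strand is not given in the sources, so reads of overlapping antisense genes cannot be told apart.

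The members, the gene lists and the rule for named genes were chosen with earlier results of these data known. The rule takes the 9 members, IRF8, a written list of receptors, ligands and relatives, up to 2 called genes in each direction per list with the largest change and no overlap, and the genes most like SPARC. Some genes of the rule and of the marker lists are not reported here. Other called genes (LAMC1, EMILIN1, EMILIN2 and those of the closing observations) are outside it and were picked once their values were known, as were the genes set beside SPARC, SRGN and THBS1 in the plot by IRF8 KO replicate. Apart from the read ranks of SRGN, levels were not compared between genes, as transcript lengths were not used here. Promoters and gene positions came from RefSeq (GRCh38.p14), which placed 13012 of the tested genes on a chromosome. Same-numbered control and IRF8 KO libraries deviated together from their group means (r = 0.37, 0.48, 0.45 and 0.50), and the replicate number was therefore tried as a block. Libraries numbered 1 and 3, and those numbered 2 and 4, deviated together between groups about as much (r = 0.40 to 0.47), and no label says what a number marks.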

Additional observations from a re-analysis of the deposited data

Results flagged for a closer look

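In 8 of 147 groups of 4 libraries, 1 library stood apart from the other 3 by the gap to its nearest neighbour over the range of the group (above the 95% critical value of Dixon for 4 values). Chance gives about 1 in 20 such groups. None of the 8 was a group of the 9 matrix genes. IRF8 KO replicate 2 stood apart as the highest of its group in CSPG4 (3844 normalized counts), CD44 (16917) and MMP14 (19470.0). IRF8 KO replicate 3 was the highest in B3GAT3 (4868), ITGA2 (16.3) and COL4A1 (8.13). IRF8 KO replicate 1 was the highest in P4HB (164264). Among controls, replicate 4 was the highest in COL4A1 (2.82), a value of a few reads.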

How the results depend on the processing

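SPARC, THBS1, SRGN, TGFBI and VCAN kept their direction under all alternatives run. With each library left out, the log2 fold changes ranged from 6.52 to 7.32 for SPARC, 3.28 to 4.96 for THBS1, 2.15 to 2.99 for SRGN, -4.01 to -3.23 for TGFBI, -3.82 to -2.77 for VCAN, -0.43 to -0.12 for FN1, 0.15 to 0.45 for TIMP1, -1.47 to 0.52 for SPP1 and -2.46 to -1.65 for IRF8, whose call was lost without control replicate 1, control replicate 3 or IRF8 KO replicate 1. VCAN moved to -2.10 with a pseudocount of 5. Within replicates 1 and 3 and within replicates 2 and 4, values moved for SPP1 (2.60 and -3.35), VCAN (-4.38 and -2.16) and TIMP1 (-0.080 and 0.70).

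The related genes called lower and higher numbered 24 and 31, and 19 to 30 and 25 to 30 with each library left out. With the replicate block they were 36 and 42, and over all genes 1912 lower and 1857 higher in place of 1253 and 1134. The block ended no call among the named genes, and it added ITGB1, ITGB3, STAB1 and LGALS3BP. The covariate for replicates 1 and 3 gave 38 lower, and the thresholds of the study gave 17 higher. edgeR gave 22 and 31, and DESeq2 32 and 40. Named genes near 0 changed sign. With quantile normalization these were TGFB1 (-0.0076) and MREG (0.066). With a library left out they were THBS3 (-0.095 to 0.42), CHST11 (-0.13 to 0.10), CD44 (-0.38 to 0.073), ITGA5 (-0.30 to 0.054), LGALS9 (-0.16 to 0.27), TGFB1 (-0.041 to 0.098) and MREG (-0.28 to 0.026). The cause of these moves was not tested, beyond the smaller number of libraries. Depth limits VCAN and LGALS3, which rest on few reads.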

Other observations

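Further genes of the lists passed limma's test and are given as values, in log2 fold change of IRF8 knockout against control over 4 and 4 libraries. Among collagen genes, the chains COL15A1 (-2.31, SE 0.38, adjusted p = 0.0038) and COL24A1 (-1.88, SE 0.32, adjusted p = 0.0046) fell and COL11A2 rose (0.84, SE 0.22, adjusted p = 0.031). The procollagen C-proteinase BMP1 (0.72, adjusted p = 0.0038), the lysyl hydroxylase PLOD1 (0.62, adjusted p = 0.026) and the peptidyl-prolyl isomerase PPIB (0.88, adjusted p = 0.0024) rose, each by less than P4HB or P3H3. The laminin chain LAMC1 rose by 1.60 (SE 0.15, adjusted p = 0.00028). EMILIN2 rose by 0.84 (adjusted p = 0.020) and its relative EMILIN1 fell by 0.82 (adjusted p = 0.035).

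In the proteoglycan list, the uronyl 2-O-sulfotransferase UST fell by 2.82 (SE 0.34, adjusted p = 0.00089) and the syndecan SDC2 fell by 1.99 (adjusted p = 0.040), as did SDC4. Toll-like receptors of matrix fragments moved apart, as TLR2 fell by 0.81 (SE 0.14, adjusted p = 0.0048) and TLR4 rose by 1.47 (SE 0.26, adjusted p = 0.0052). The metalloproteinase inducer BSG (0.95, adjusted p = 0.0042), the membrane-anchored MMP17 (2.28, SE 0.28, adjusted p = 0.00089) and the disintegrin proteases ADAM15 (1.30, adjusted p = 0.0019) and ADAM9 (1.22, adjusted p = 0.041) rose. The protease inhibitor A2M fell by 1.89 (adjusted p = 0.036).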
